A study of Mus musculus with 24 samples.

Results

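Immunoglobulin variable (V) segments were read in livers of old and young mice as all rows of the deposited gene tables whose gene name begins with Ighv, Igkv or Iglv. There were 282 such segments among 43629 listed genes: 174 of the heavy chain locus, 105 of the kappa locus and 3 of the lambda locus. The old group was wild-type C57BL/6 mice of about 19 months and the young group wild-type C57BL/6 mice of about 4 months, with no other allele or agent named and sex not given in the sources used here. Livers were taken every 4 h, at zeitgeber times (ZT, hours of the lighting cycle) 2, 6, 10, 14, 18 and 22, with 2 libraries per age and time, so that each age had 12 libraries and the series 24. Collection ran across 2 days, per the series' design text. The labels number the libraries of a group 1 and 2 without saying whether the number marks a day, an animal or a run, so p-values measure the spread between these libraries, which may be technical. The study asked how the daily rhythms of liver gene expression differ between the ages.

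As background, each B cell joins a V segment to shorter segments of the same locus to make the exon for the antigen-binding domain of its antibody. A heavy chain uses an Ighv segment and a light chain an Igkv or an Iglv segment, kappa being far the more common in mice. All daughters of that cell transcribe the same V segments, and plasma cells, the antibody-secreting descendants, hold very large amounts of this RNA. Hepatocytes make no antibody, and in liver the B lineage cells lie among them and in the blood. In whole-liver RNA, fewer such cells and less RNA per cell cannot be told apart.

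More V segment RNA, from more segments, was read in old than in young livers. Levels are the deposited TPM, a length-corrected share of a library's transcripts, divided by a scaling factor per library and called scaled TPM. Summed over all 282 segments they ranged between 16.2 and 352 in the old libraries with a median of 64.2, against 0.814 to 27.0 with a median of 5.39 in the young. Of the old libraries, 11 of 12 lay above every young library. Igkv5-39 (kappa) and Iglv1 (lambda) were higher in old livers in the fit over all genes. Igkv3-2 reached the highest level of any segment, 111 scaled TPM in 1 old library, and was listed at 0 in all 12 young libraries.

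The 3 segments on which these results turn are printed below, each beside a close relative of its locus, because 50-base reads can be assigned to a segment only where its letters differ from those of its kin. They are the reference exons in GENCODE M21 (GRCm38), 5′ to 3′ on the coding strand, and not rearranged or mutated sequence from these mice. Capitals mark the bases that differ within each pair over the stretch shown. Igkv5-39 (chr6:69900424-69900710, minus strand) was annotated as a single coding block without its leader exon. It matched Igkv5-45 (chr6:69775750-69776306, minus strand), its nearest kappa relative, at 263 of 287 aligned bases (91.6%), and bases 61 to 347 of Igkv5-45 are shown.
Igkv5-39: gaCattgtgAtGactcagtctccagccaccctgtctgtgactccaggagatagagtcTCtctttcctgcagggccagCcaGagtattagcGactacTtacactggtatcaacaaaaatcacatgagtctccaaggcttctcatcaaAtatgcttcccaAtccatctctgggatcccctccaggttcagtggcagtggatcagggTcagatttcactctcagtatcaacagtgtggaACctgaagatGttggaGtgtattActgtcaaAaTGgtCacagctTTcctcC
Igkv5-45: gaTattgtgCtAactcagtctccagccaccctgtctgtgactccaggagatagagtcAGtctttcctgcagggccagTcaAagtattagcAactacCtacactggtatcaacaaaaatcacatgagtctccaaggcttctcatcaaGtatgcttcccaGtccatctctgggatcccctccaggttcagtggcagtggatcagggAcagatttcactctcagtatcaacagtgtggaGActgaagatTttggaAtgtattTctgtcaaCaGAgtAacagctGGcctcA
Igkv3-2 (chr6:70698468-70699067, plus strand) and Igkv3-5 (chr6:70663298-70663895, plus strand) lie near the kappa constant region and differ at 32 of 359 bases (91.1% identity), 22 of them within the first 300 bases, shown here. Igkv3-1 is closer still to Igkv3-2, at 92.8%.
Igkv3-2: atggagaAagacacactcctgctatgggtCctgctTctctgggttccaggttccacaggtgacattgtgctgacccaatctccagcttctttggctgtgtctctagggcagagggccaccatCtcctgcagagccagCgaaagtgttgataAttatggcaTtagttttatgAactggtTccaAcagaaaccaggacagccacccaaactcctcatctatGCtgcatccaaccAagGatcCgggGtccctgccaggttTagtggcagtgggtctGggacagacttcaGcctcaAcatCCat
Igkv3-5: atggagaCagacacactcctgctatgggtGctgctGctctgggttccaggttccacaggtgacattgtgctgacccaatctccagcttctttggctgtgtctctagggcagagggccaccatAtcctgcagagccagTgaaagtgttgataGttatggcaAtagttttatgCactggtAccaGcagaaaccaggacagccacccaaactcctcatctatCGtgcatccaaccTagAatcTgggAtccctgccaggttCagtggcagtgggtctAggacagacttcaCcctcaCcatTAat
Iglv1 (chr16:19085017-19085460, minus strand) and Iglv2 (chr16:19260401-19260844, minus strand) differ at 13 of 351 aligned positions, 3 of which are bases that Iglv2 lacks (96.3% identity); the first 300 positions, shown here, hold 10 of the 13.
Iglv1: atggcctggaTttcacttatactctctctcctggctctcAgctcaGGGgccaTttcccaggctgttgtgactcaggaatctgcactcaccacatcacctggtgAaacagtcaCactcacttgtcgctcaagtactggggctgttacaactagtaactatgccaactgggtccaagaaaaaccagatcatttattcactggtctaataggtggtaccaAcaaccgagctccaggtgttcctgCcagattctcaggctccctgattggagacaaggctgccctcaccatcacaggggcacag
Iglv2: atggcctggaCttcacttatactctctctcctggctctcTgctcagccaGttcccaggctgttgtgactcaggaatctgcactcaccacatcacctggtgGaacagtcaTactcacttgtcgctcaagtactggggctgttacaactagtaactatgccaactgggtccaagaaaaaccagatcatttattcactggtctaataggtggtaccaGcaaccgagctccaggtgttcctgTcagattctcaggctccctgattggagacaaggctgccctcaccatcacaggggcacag
No 50-base stretch of Igkv5-39 recurs in another V segment, whereas 22.6% of those of Igkv3-2, 52.6% of those of Igkv3-5 and 25.2% of those of Iglv1 do. Values of Igkv3-2, Igkv3-5 and Iglv1 can therefore hold reads shared with relatives, and a split of such reads by the authors' counting is uncertain.

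Most V segments were not detected at this depth. The libraries held 8700000 to 12330000 read equivalents in old and 9680000 to 13650000 in young, a read equivalent being 50 mapped bases. For a segment it was the deposited coverage times the exon length over 50 bases. For a whole library it came from the highest ratio of coverage to deposited FPKM, a level corrected for length and depth, among genes. Of the 282 segments, 167 were listed at 0 in every library and 115 were above 0 in at least 1: 59 heavy, 53 kappa and all 3 lambda. Over their 12 libraries, all V segments together held 2257 read equivalents in old and 220 in young. Of the 115, 111 were above 0 in an old library and 51 in a young one. In all, 64 were above 0 in old and listed at 0 in every young library, 4 were the other way round, and 47 were seen at both ages. Over the 21584 genes above 0 anywhere, 6.41% were seen in old alone and 5.05% in young alone.

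The number of segments above 0 in a library ranged between 19 and 59 in old, with a median of 32, against 3 to 27 in young, with a median of 9. The old libraries with the most segments were ZT6 replicate 2 with 59 and ZT22 replicate 2 with 49, and the young one was ZT6 replicate 2 with 27. In young livers ZT14 replicate 1 had 3 and ZT18 replicate 1 had 4. Kappa segments numbered 11 to 32 per library in old and 1 to 13 in young. Heavy segments numbered 6 to 25 in old and 0 to 13 in young. At 1 scaled TPM or more, the counts were 5 to 44 in old and 0 to 8 in young. All V segments together held 32.6 to 705 read equivalents per old library and 1.5 to 60.9 per young one. The part of these read numbers in the segment counts was not tested.

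**Figure D1:**
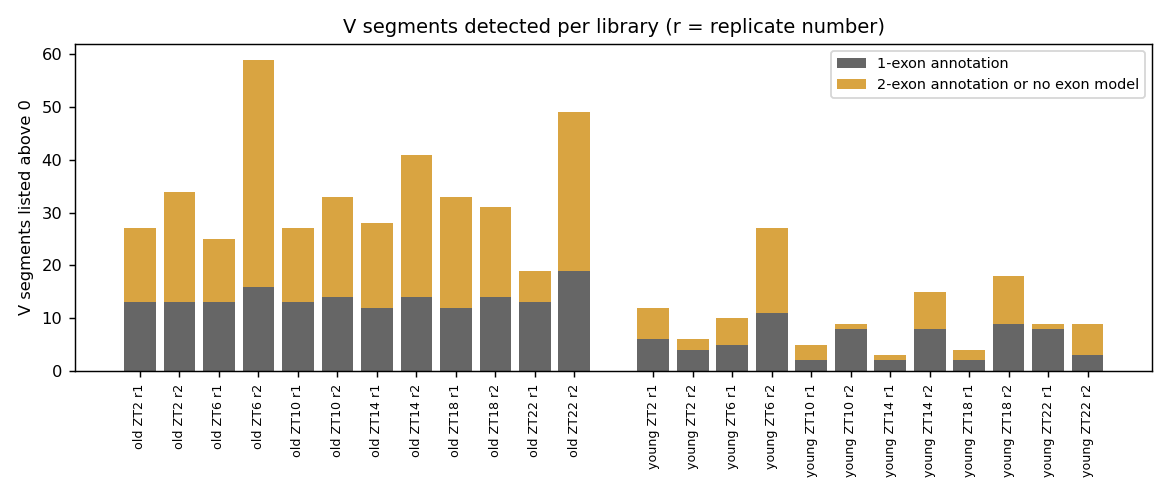
Number of V segments listed above 0 in each of the 24 libraries, old on the left and young on the right; the grey part of a bar counts segments annotated as 1 exon and the amber part the rest. Old bars stand between 19 and 59 and young bars between 3 and 27, and the grey parts of the 12 old bars (12 to 19) are all taller than those of the 12 young bars (2 to 11).

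How a segment is annotated bears on these counts. A V segment has a leader exon and a V exon, but 46 rows carry a single block and 230 carry 2 exons. The lowest value above 0 of a single-block segment was never above 1 read equivalent (median over 23 segments 0.50), while that of a 2-exon segment had a median of 2.50 and reached 3 or more in 39 of 91 segments. A listed 0 for a 2-exon segment can thus stand for a few reads, and its cause was not tested. This limit covers most of the 64 segments seen in old alone, of which 63 were 2-exon and 1 single-block. Of the 23 single-block segments above 0, 22 were seen at both ages. Counting only single-block segments, 12 to 19 were above 0 per library in old and 2 to 11 in young, and the ages did not overlap. The 2-exon segments numbered 6 to 43 in old and 1 to 15 in young, and here the ages overlapped.

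Almost all values came from segments annotated as functional. GENCODE M21 calls 212 of the 282 functional and 70 pseudogenes. Functional segments accounted for 114 of the 115 above 0. Ighv1-73 was the only pseudogene with a value, at no more than 0.830 scaled TPM in 2 old libraries and 0.0527 in 1 young library, and this row was chosen after its values were seen.

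Summed over the libraries of an age, kappa segments made up most of the V segment RNA in old and in young livers. Their sum per library was 11.5 to 283 scaled TPM in old (median 44.5), against 0.281 to 14.9 in young (median 4.04). Heavy segments summed to 3.41 to 51.2 in old (median 10.2) and 0 to 8.88 in young (median 1.80). Lambda segments summed to 0 to 18.2 in old (median 5.36) and 0 to 3.76 in young (median 0). For kappa 11 of 12 old libraries lay above every young one, for heavy 7 and for lambda 9. The means of the old pair exceeded those of the young pair at 6 of 6 times for each locus. Old ZT6 replicate 2 was the highest library for each locus, with 283 kappa, 51.2 heavy and 18.2 lambda scaled TPM. Old ZT22 replicate 2 followed for kappa with 108 and for heavy with 33.3. With both of these left out, the old mean for kappa was 38.1, against 64.4 ± 74.0 with them (SD, n = 12) and 4.89 ± 3.70 in young (SD, n = 12).

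**Figure D2:**
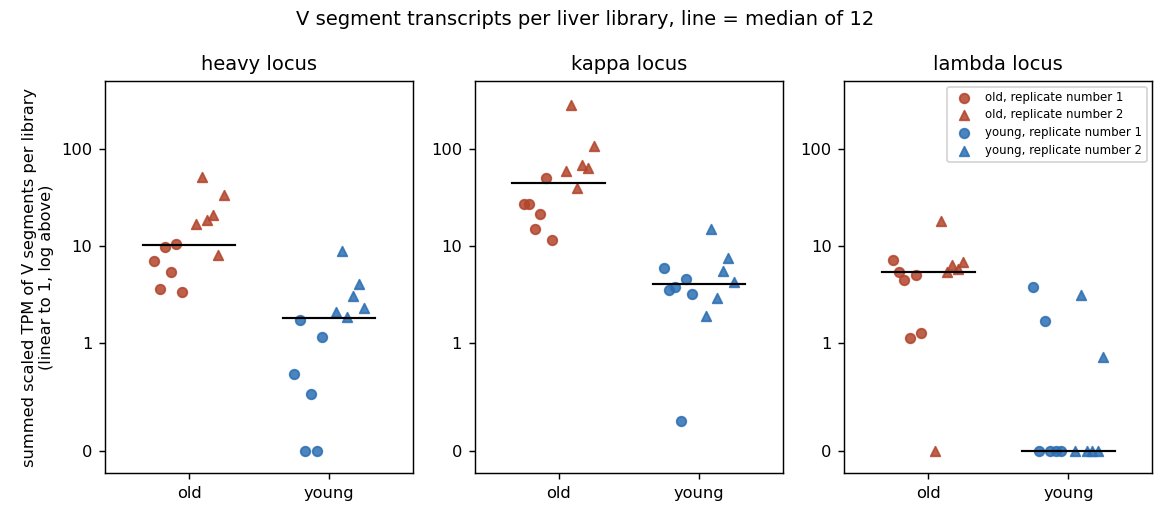
Summed scaled TPM of the V segments of each locus, 1 point per library, old left and young right in each panel, circles for replicate number 1 and triangles for 2; the axis is linear up to 1 and logarithmic above, and the line is the median. Old kappa libraries lie between 11.5 and 283, 11 of the 12 above the highest young value of 14.9, and at 6 of 6 times the old triangle lies above the old circle for kappa.

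Libraries numbered 2 held more V segment RNA than those numbered 1. The kappa sum was higher in number 2 at 6 of 6 times in old and at 4 of 6 in young. In old livers the kappa sum had a median of 65.7 (39.4 to 283) in number 2 and of 24.2 (11.5 to 49.7) in number 1. In young livers it had a median of 4.95 (1.90 to 14.9) in number 2 and of 3.67 (0.281 to 6.00) in number 1. In old livers number 2 libraries had 8700000 to 10220000 read equivalents and number 1 libraries 10190000 to 12330000. In young livers the ranges were 9820000 to 13650000 in number 2 and 9680000 to 11630000 in number 1. The part of depth and of the collection day in this was not tested. Within each number every old library exceeded the young libraries of the same number: 11.5 or more against at most 6.00 for number 1, and 39.4 or more against at most 14.9 for number 2. Igkc, the kappa constant region, moved the same way, with medians in old of 141 in number 2 and 90.7 in number 1, and in young of 25.3 and 15.2. The part of the replicate number in the age differences below was examined by fitting each number alone.

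Igkv5-39 was the only V segment listed above 0 in all 12 old libraries, as were 31.3% of all listed genes. It is a single-block segment, and 17 of the 23 detected segments of that kind were above 0 in 6 or more old libraries. Of the 91 detected 2-exon segments 14 were, and the part of the annotation in this was not tested. In old livers the level of Igkv5-39 at ZT2, ZT6, ZT10, ZT14, ZT18 and ZT22 was 4.94, 5.34, 2.50, 5.15, 7.05 and 4.18 scaled TPM in the libraries numbered 1. In those numbered 2 it was 11.2, 9.03, 10.5, 10.01, 13.7 and 9.53. In young livers it was listed at 0 in 8 libraries, with 0.523 and 0.993 at ZT6, 0.420 at ZT18 and 0.600 at ZT22 in the others. The ages therefore did not overlap, which held for 0.125% of the 21584 genes above 0 in any library and for 0.155% of those with a mean of at least 1 scaled TPM. These levels rest on 5 to 25 read equivalents per old library, 182 in all, and on 5 in all in young. Within the old group, the library numbered 2 was the higher at 6 of 6 times.

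Iglv1, the main lambda V segment, was above 0 in 11 of 12 old and in 3 of 12 young libraries. In old livers it was listed at 4.26, 5.36, 4.50, 1.13, 4.99 and 1.28 scaled TPM from ZT2 to ZT22 in number 1. In number 2 it was 0, 17.3, 5.37, 6.43, 5.85 and 6.93. The young libraries above 0 were ZT2 replicate 1 with 3.01, ZT6 replicate 2 with 3.17 and ZT10 replicate 1 with 1.68, so the ages overlapped. Iglv2 was above 0 in 1 old library, at 2.94, and in 1 young library, at 0.877. Iglv3 likewise appeared once per age, at 0.946 in old and 0.752 in young.

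In the limma fit over all 12234 genes with a mean of at least 1 scaled TPM, 1.14% of genes were called higher and 0.499% lower in old at a Benjamini-Hochberg adjusted p under 0.05. Only 9 V segments reached that mean, 8 kappa and 1 lambda, and each did so through its level in old livers, the young means being 0 to 0.674. Their count and their directions therefore do not describe the 282. Of the 9, Igkv5-39 and Iglv1 were called higher. Igkv5-39 differed by log2 3.53 ± 0.25 (SE; limma adjusted p = 1.76e-06) and Iglv1 by log2 2.45 ± 0.49 (SE; limma adjusted p = 0.0140), both on the log2(scaled TPM + 0.5) scale. When ages were exchanged within each time in every possible way (exact permutation, two-sided), Igkv5-39 had p = 4.29e-05, the smallest that 46656 arrangements can give, and 0.0108 after adjustment over all 21584 genes above 0. Iglv1 had an exact permutation p of 0.000557, or 0.0472 adjusted over the same genes. That test called 0.848% of all genes higher and 0.357% lower. Iglv1 lost its call when ZT10, ZT14 or ZT18 was left out, with limma adjusted p-values of 0.0514, 0.0536 and 0.0952.

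With the libraries of each replicate number fitted alone, age and time being additive, Igkv5-39 was called in both. It differed by log2 4.06 ± 0.25 (SE; limma adjusted p = 0.00218) in number 2 and by log2 3.01 ± 0.26 (SE; limma adjusted p = 0.00282) in number 1, where 0.45% and 0.255% of all genes were called higher. Iglv1 was not called in either, with limma adjusted p-values of 0.0571 in number 2 and 0.138 in number 1. At single times Igkv5-39 was called at ZT10, ZT14 and ZT18, with limma adjusted p-values of 0.0206, 0.0275 and 0.0380 beside 0.45%, 0.0327% and 0.0163% of all genes called higher. At ZT2, ZT6 and ZT22 its limma adjusted p-values were 0.0949, 0.327 and 0.175, where 0%, 0% and 0.00817% of all genes were called higher. No other V segment was called at any single time.

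**Figure D3:**
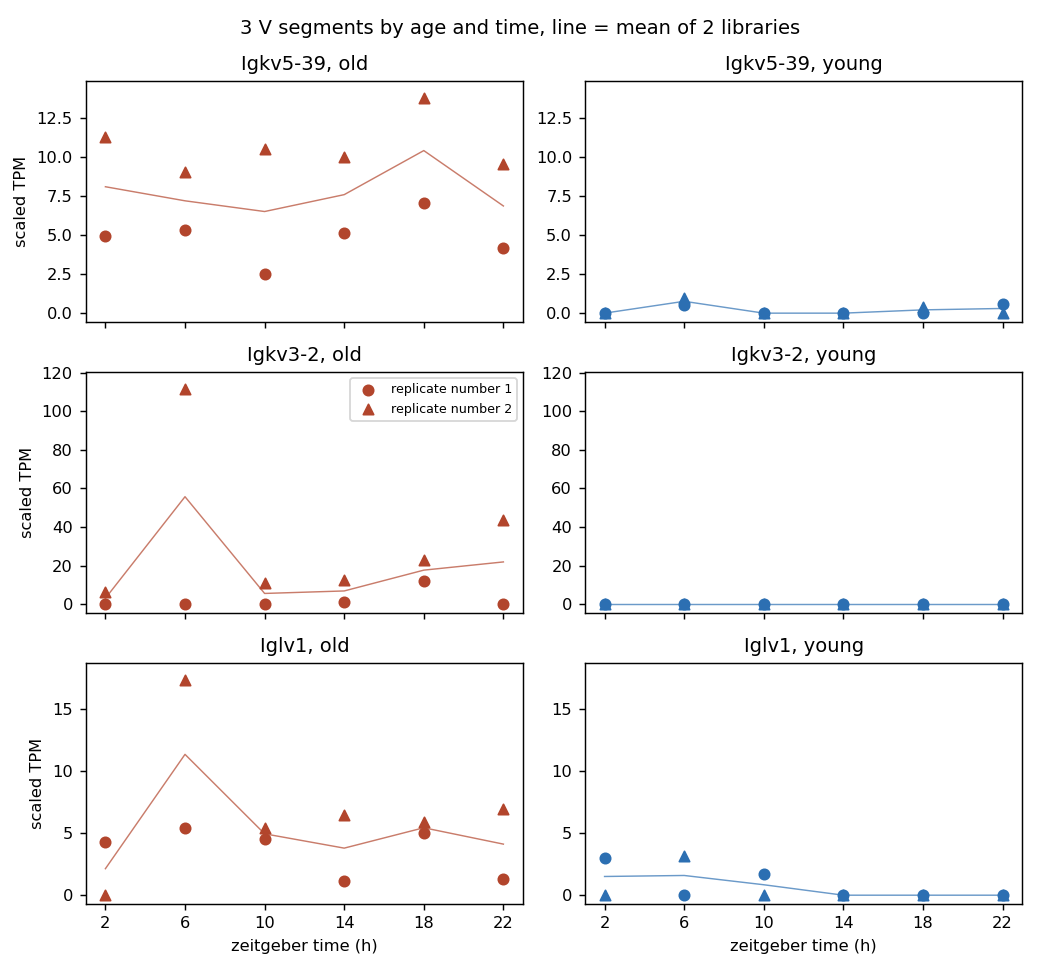
Scaled TPM of Igkv5-39, Igkv3-2 and Iglv1 against zeitgeber time in hours, old in the left panels and young in the right, 1 point per library with circles for replicate number 1 and triangles for 2, and a line through the mean of the pair. Igkv5-39 lies between 2.50 and 13.7 in old and at most at 0.993 in young; Igkv3-2 reaches 111 at ZT6 in old and is listed at 0 throughout in young.

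Igkv3-2 had the highest old mean of any V segment but was unevenly spread over the libraries. In old livers numbered 2 it was 6.13, 111, 11.1, 12.8, 23.1 and 43.8 scaled TPM from ZT2 to ZT22. In those numbered 1 it was listed at 0 at ZT2, ZT6, ZT10 and ZT22, with 0.951 at ZT14 and 12.2 at ZT18. All 12 young libraries were listed at 0, so no fold is given. The ZT6 replicate 2 library alone held 46.4% of its 498 read equivalents. The segment did not pass the fit over all libraries (limma adjusted p = 0.0956; 0.0230 with the replicate number as a block), and its exact permutation p was 0.00347, or 0.138 adjusted over all genes. It passed in the libraries numbered 2 fitted alone (limma adjusted p = 0.00596) and not in those numbered 1 (limma adjusted p = 0.781). Its relative Igkv3-5 had 33.5 scaled TPM in old ZT6 replicate 2, at most 2.33 in the other old libraries and 0.680 in 1 young library.

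The remaining kappa segments with a mean of at least 1 scaled TPM had higher means in old livers and did not pass the fit as planned. With the replicate number as a block, Igkv19-93, Igkv1-117 and Igkv4-55 passed (limma adjusted p = 0.0283, 0.0446 and 0.0485), although the labels do not say that the numbers pair libraries. Igkv19-93, a single-block segment, ranged between 0 and 11.7 in old (median 2.49, above 0 in 11 libraries) and between 0 and 1.71 in young (median 0.480, above 0 in 7); its limma adjusted p was 0.116. The files list that name under 2 overlapping identifiers, of which only ENSMUSG00000076530 had values, and GENCODE M21 gives this identifier to Igkv11-106. Igkv1-117 was above 0 in 8 old and 3 young libraries, at up to 4.82 and 1.85 scaled TPM (limma adjusted p = 0.0626). Igkv1-110 was above 0 in 8 old and 4 young libraries, at up to 9.41 and 2.11 (limma adjusted p = 0.190). Igkv4-55 was above 0 in 6 old libraries, at up to 11.7, and in no young one (limma adjusted p = 0.111). Igkv10-96 and Igkv3-5 had limma adjusted p-values of 0.548 and 0.588.

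Heavy segments were spread more thinly, and none had a mean of 1 scaled TPM. Ighv1-26 was above 0 in 6 old libraries, at 3.45 (ZT6 replicate 2), 3.48 (ZT10 replicate 1), 4.72 (ZT10 replicate 2), 2.73 (ZT14 replicate 2), 2.31 (ZT18 replicate 1) and 2.16 (ZT22 replicate 2), and in no young library. Ighv1-53 was above 0 in 5 old libraries, at 8.14 (ZT6 replicate 2), 1.07 (ZT10 replicate 2), 3.27 (ZT18 replicate 1), 2.70 (ZT18 replicate 2) and 2.81 (ZT22 replicate 2), and in no young one. Both shared many 50-base stretches with other segments, 49.0% and 57.6%. Their unadjusted exact permutation p-values were 0.0208 and 0.0417, and 0.3297 and 0.451 adjusted over all genes. Ighv9-1 reached 10.2 in old ZT2 replicate 2, 55.4% of all its reads, and was otherwise between 0 and 1.34 in old and between 0 and 1.23 in young. Ighv1-82, a single-block segment, was the most evenly detected of those with high means, in 11 old libraries at up to 2.09 and in 4 young ones at up to 1.23. Ighv3-6 was above 0 in 3 old libraries and 1 young library.

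**Figure D4:**
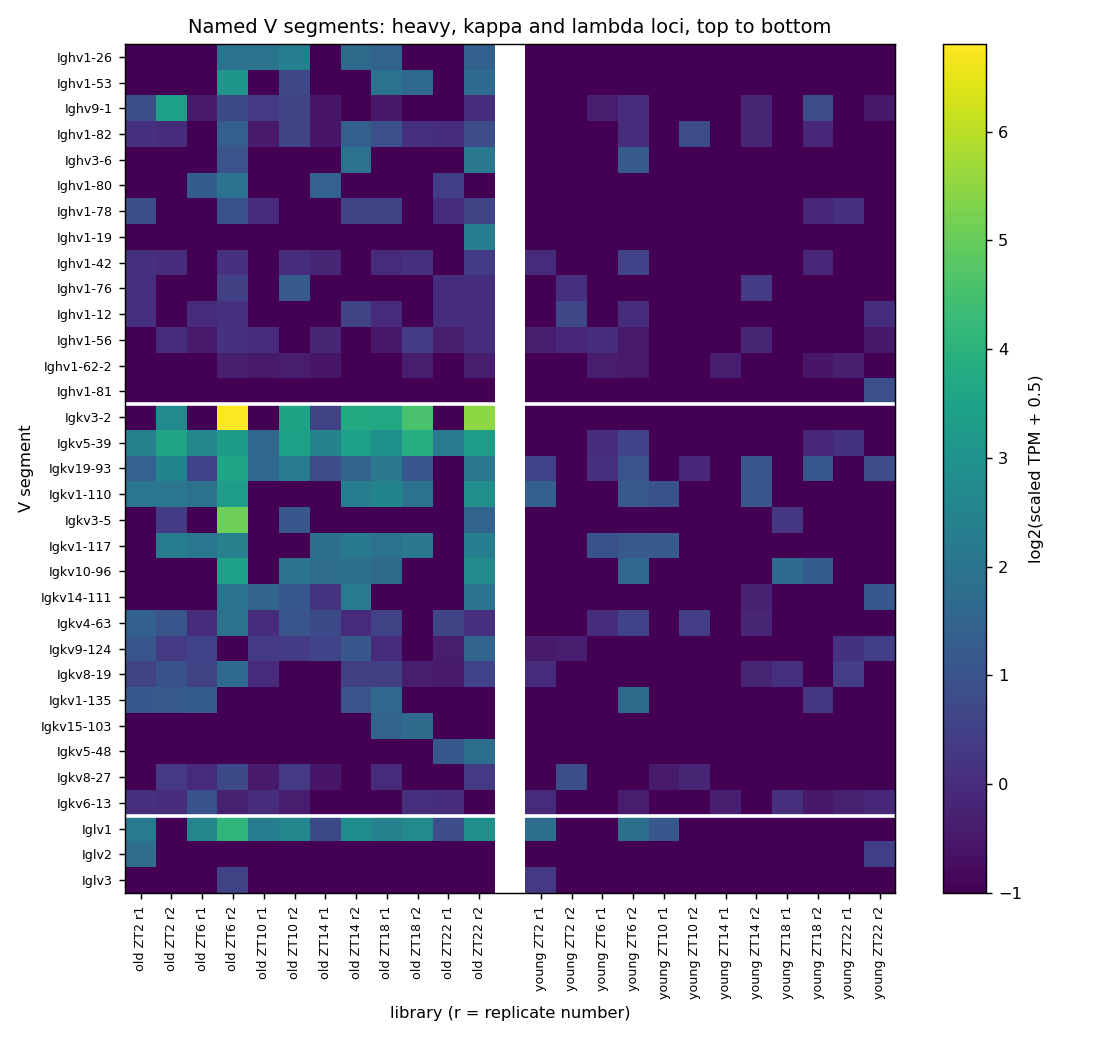
Level of 33 V segments chosen by their means, their rank in a library or their calls, as log2(scaled TPM + 0.5), in the 12 old libraries (left block) and the 12 young libraries (right block), heavy, kappa and lambda loci from top to bottom and ordered by their mean in old. Igkv5-39 is the only row lit in every old library, and most rows are at the floor of the scale in most young libraries.

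Over all 115 segments above 0, the mean was higher in old for 108 and lower for 7, beside 49.6% of all genes with a higher mean in old. Of the 115, 64 entered through old libraries alone and 4 through young ones alone. The direction of these was thereby fixed, and the counts over the 115 do not describe the 282. By exact permutation 21 had an unadjusted p under 0.05 with a higher mean in old and 0 with a lower one, beside 5.65% and 4.55% of all genes. After adjustment over all genes the exact test left Igkv5-39 and Iglv1. With no filter on low values, limma called 5 of the 115 higher and 0 lower, beside 0.894% and 0.301% of all genes. They were Igkv5-39, Iglv1, Igkv9-124, Igkv15-103 and Igkv5-48. Igkv9-124 was above 0 in 10 old and 4 young libraries (log2 0.97 ± 0.22 SE, limma adjusted p = 0.0459; adjusted exact permutation p = 0.108). Igkv15-103 was above 0 only in the 2 old ZT18 libraries, at 2.33 and 2.73, and Igkv5-48 only in the 2 old ZT22 libraries, at 1.73 and 3.07. Their exact permutation p was 0.333 each, so each of these calls rests on 1 pair of similar libraries. With a mean of at least 0.1 scaled TPM, 6 of 73 V segments were called higher, beside 1.22% of all genes. With the replicate number as a block it was 6 of 9, beside 1.78%. V segments reached both means mainly through their level in old livers, so neither count describes the 282.

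Some segments led their locus in libraries of both ages and others in 1 age. Among kappa segments, Igkv3-2 was highest in 6 of 12 old libraries, Igkv5-39 in 5 and Igkv19-93 in 1. Every library led by Igkv5-39 but ZT2 replicate 2 carried number 1. In young livers 10 different segments led, Igkv1-117 and Igkv10-96 in 2 libraries each and 8 others in 1 each. Igkv19-93 led at both ages, and neither Igkv3-2 nor Igkv5-39 led in a young library. The leading kappa segment reached 2.55 to 111 scaled TPM in old and 0.281 to 2.81 in young. The difference in leaders was not tested, and young leaders rest on few reads: all kappa segments together held 0.50 to 34.5 read equivalents per young library, against 23.0 to 567 per old library.

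The leading kappa segment held 16.8 to 40.4% of the kappa sum in old (median 24.3%) and 18.5 to 100% in young (median 37.6%). The 5 highest held 53.1 to 80.0% in old and 69.1 to 100% in young. The inverse Simpson number, which counts how many equally abundant segments would give the same evenness, was 5.03 to 11.5 in old (median 8.47) and 1.0 to 8.60 in young (median 4.49). The part of the low read numbers of young libraries in these shares was not tested. Igkv5-39 made up 3.20 to 36.3% of the kappa sum of old libraries. Igkv3-2 made up 39.4% in ZT6 replicate 2, 40.4% in ZT22 replicate 2 and 36.6% in ZT18 replicate 2.

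**Figure D5:**
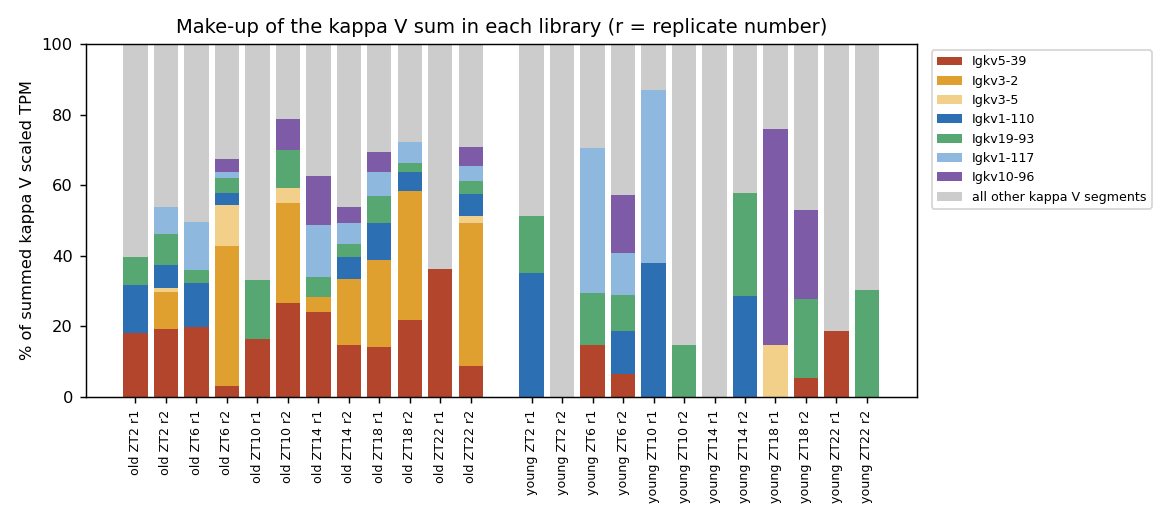
Share of the summed kappa V scaled TPM in percent held by 7 segments and by all others, 1 bar per library, old left and young right. Igkv5-39 appears in all 12 old bars and in 4 young ones, and Igkv3-2 appears in 8 old bars, up to 40.4%, and in no young one.

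Among heavy segments, Ighv1-53 and Ighv1-80 led in 3 old libraries each, Ighv1-26 and Ighv9-1 in 2 each, and Ighv1-19 and Ighv3-6 in 1 each. In young livers 2 libraries had no heavy segment above 0 and 10 different segments led in the other 10, Ighv1-71 at ZT14 level with Ighv1-62-2. Ighv9-1 and Ighv3-6 led at both ages. Ighv1-78, which led in young ZT22 replicate 1, was level with Ighv9-1 in old ZT2 replicate 1, at 1.34 scaled TPM. The leading heavy segment held 13.5 to 59.8% of the heavy sum in old and 20.6 to 66.7% in the 10 young libraries with a value. Its level was 0.855 to 10.2 scaled TPM in old and 0 to 1.83 in young. The highest share in old was that of Ighv9-1 in ZT2 replicate 2.

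By family, Ighv1 segments held 60.5% of the heavy sum over all old libraries and 65.0% over all young ones; this family is also the largest, with 86 of the 174 heavy rows. Ighv9 held 11.7% in old and 14.9% in young. Among kappa families, Igkv3 held 37.1% of the old sum and 3.44% of the young. Its sum per library was 0.233 to 161 in old (median 11.4) and 0 to 0.680 in young (median 0), so the pooled old share leans on the highest library. Igkv5 held 14.5% in old and 4.32% in young. Igkv1 held 10.7% in old and 26.3% in young, although its level was higher in old, with medians of 7.98 and 0.333 scaled TPM. Igkv4, the family with the most kappa rows, held 11.2% in old and 15.8% in young. Iglv1 held 94.2% of the lambda sum in old and 82.8% in young.

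By position, the 52 kappa segments nearer Igkc, within 1348 kb, held 71.7% of the kappa sum in old and 38.3% in young. These shares pool the libraries of an age, so old ZT6 replicate 2, with 283 scaled TPM of kappa, weighs most in old. Igkv3-2, the second segment from Igkc at 27.4 kb, accounted for part of this sum: without it the nearer segments held 60.3% in old. Igkv5-39 lies 826 kb from Igkc. Of the segments above 0, 33 were nearer and 20 farther. Heavy segments showed a smaller contrast, the 87 nearer Ighm holding 41.0% of the heavy sum in old and 33.8% in young.

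Among the 9 V segments with a mean of at least 1 scaled TPM, no variation over the day was detected. An F test for a change of the age difference between times called 0 of the 9 tested segments by limma, with an unadjusted p under 0.05 for 0 of them, beside 0.0163% and 3.6% of all genes. The lowest unadjusted limma p was 0.0802, for Igkv1-117. Within old livers the limma F test over times gave 0 calls, beside 5.66% of all genes. Igkv1-117 alone had an unadjusted p under 0.05 there, beside 18% of all genes (limma adjusted p = 0.218). Within young livers it gave 0 calls, beside 6.87% of all genes, and 0 at an unadjusted p under 0.05, beside 18.3%. With no filter on low values the F test for the age difference called 2 of 115 segments by limma, beside 17 of 21584 genes. The 2 were Igkv15-103 and Igkv5-48, which were above 0 at a single old time each. With 2 libraries per time the spread within a pair was wide, such as 0 and 111 scaled TPM for Igkv3-2 at old ZT6.

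The constant regions, to which V segments are spliced, were read as a list of 13 genes, of which 10 were matched and 7 tested. All 7 were called higher in old by the same limma fit, beside 1.14% of all genes. Their median log2 was 2.25 beside -0.01 over all genes. Of the 7, Ighg1 reached the mean needed for the test through old livers (mean 4.06, against 0.756 in young). Ighd (means of 1.04 in old and 0.696 in young), Ighg3 (0.240 and 0.0231) and Ighe (0 in both) fell below that mean. Igkc was 76.4 to 405 scaled TPM in old and 7.89 to 43.1 in young (log2 2.66 ± 0.27 SE, limma adjusted p = 6.13e-05). The kappa V sum came to 0.141 to 0.697 of the Igkc level in old and 0.0356 to 0.368 in young. Ighm, the constant region of IgM, was 21.002 to 182 in old and 2.27 to 9.85 in young (log2 2.68 ± 0.31 SE, limma adjusted p = 0.000161). Igkc and Ighm were highest in old ZT6 replicate 2 and next in old ZT22 replicate 2, the libraries with the most Igkv3-2.

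Genes of the cells that carry this RNA were few at this depth. Of 14 plasma cell genes 7 were tested: Jchain, the joining chain of secreted IgM and IgA, was higher in old (log2 1.94 ± 0.27 SE, limma adjusted p = 0.000899), and Fkbp11, a folding factor of the secretory pathway, was lower (log2 -0.92 ± 0.18 SE, limma adjusted p = 0.0120). The list's median log2 was -0.05. Xbp1, Sdc1 and Txndc5 had limma adjusted p-values of 0.716, 0.911 and 0.955. Derl3 averaged 2.71 in old and 4.16 in young (limma adjusted p = 0.635). Sdc1 and Xbp1 are also hepatocyte genes. Txndc5 averaged 90.2 in old and 88.1 in young, and Fkbp11 15.6 and 29.2. The part of hepatocytes in these levels was not tested, so the list median and the Fkbp11 call may not describe plasma cells. Jchain was 8.35 to 51.0 scaled TPM in old and 1.27 to 7.35 in young. Among the 7 below the mean needed for the test, Mzb1, a chaperone of antibody assembly, averaged 0.736 in old and 0.138 in young, with 8 old libraries above every young one. Pou2af1 averaged 0.355 in old and 0.128 in young, Irf4 0.158 and 0.0765, and Tnfrsf13b 0.296 and 0.202. Prdm1 averaged 0.112 in old and 0.116 in young, Eaf2 0.0426 and 0.0788, and the plasma cell receptor Tnfrsf17 was listed at 0 in every old library and reached 0.368 in young. Of 16 B cell genes 3 were tested and 0 called by limma, with a median log2 of 0.08. All of the 16 but Bank1 and Cxcr5 had a higher mean in old. Bank1 averaged 0.979 in old and 1.09 in young, and Cxcr5 0.130 and 0.150. In a shorter list of 5 plasma cell markers, 2 of 5 had a higher mean in old. In a shorter list of 6 B cell markers, 6 of 6 had a higher mean in old. The sums of the 6 B cell markers had medians of 3.65 in old and 2.91 in young. The ages overlapped, and the difference in sums was not tested. Cd79b, a signalling chain of the B cell receptor, was 0.477 to 3.62 scaled TPM in old and 0.168 to 3.98 in young (limma adjusted p = 0.953). Ms4a1, which encodes the B cell surface protein CD20, was 0.0740 to 1.52 in old and 0.149 to 0.590 in young, below the mean needed for the test. The part of B cell and plasma cell number in the V segment values was not tested.

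Of 10 genes of recombination and DNA repair in B lineage cells 5 were tested and 0 called by limma, with a median log2 of -0.03. Rag1 and Rag2, the recombinase subunits, and Igll1, a part of the surrogate light chain, were listed at 0 in all 24 libraries. T cell receptor V segments, the most similar genes of the other lymphocyte lineage, were far scarcer: 18 of 150 listed were above 0 anywhere, none reached a mean of 1 scaled TPM, and 0 to 4 were above 0 per library in old and 0 to 3 in young. Their sums were 0 to 2.51 scaled TPM in old and 0 to 1.012 in young, and this difference was not tested. The 8 T cell markers summed to 1.71 to 17.3 in old and 3.63 to 12.7 in young, and 7 of 8 had a higher mean in old. Neutrophil markers summed to 2.63 to 133 in old (median 26.8) and 2.27 to 22.5 in young (median 7.90), and 5 of 5 had a higher mean in old. Lymph node stroma markers summed to 2.72 to 67.4 in old and 1.96 to 5.40 in young; most of this was Cxcl13, a chemokine that attracts B cells, with 10 old libraries above every young one and the old mean higher at 6 of 6 times. Kupffer cell markers summed to 183 to 541 in old and 192 to 260 in young, with 3 of 4 higher in old by their means. NK cell markers summed to 0.466 to 3.15 in old and 0.634 to 4.92 in young, with 1 of 4 higher in old. The part of these cell types in the V segment values was not tested. Hepatocyte markers summed to 76051 to 105502 in old and 70478 to 102799 in young, as the tissue label says. Young ZT18 replicate 2 held pancreatic acinar transcripts, with Ctrb1 at 720 scaled TPM and its V segment sum inside the young range; leaving it and old ZT14 replicate 1 out together left 2 V segments called.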

How the data were processed

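Strand-specific 50-base libraries were made from oligo-dT selected liver RNA, per the labels' protocols. HISAT2 and StringTie on GRCm38 are named in the submitters' processing notes; versions and settings are not given in the sources used here. The authors deposited TPM, FPKM and coverage (signal) per gene and library, with no counts. TPM was divided by a median-of-ratios factor from the 13270 genes above 0 in all 24 libraries (0.817 to 1.23). limma 3.58.1 (R 4.3.3) was fitted with an intensity trend to log2(scaled TPM + 0.5) over 12 groups of age and time, for 12234 genes with a mean of at least 1, with Benjamini-Hochberg adjustment at 0.05. On simulated data it recovered 54% of genes planted at log2 0.5 and 92% at log2 1 among 12234 genes, with 9 false calls of 179. The simulated spread was normal around a flat mean per gene. These rates need not hold for V segments listed at 0 in most libraries.

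Read equivalents came out whole or at 0.5 within 0.03 for 94.7% of V segment values above 0. GENCODE M21 matched 274 segments by identifier and 8 by overlap, and gave exons for 276. Single segments were tested by exact permutation, adjusted over all genes and not, as first written, over the segments. Named segments passed the fit, had the highest means (5 heavy, 5 kappa, 3 lambda per age), led a library, or passed with no filter; Igkv4-55 and Ighv1-71 were named after their values were seen. Members and gene lists were chosen with earlier results of these data known. Some genes of the lists are not reported here.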

Additional observations from a re-analysis of the deposited data

How the results depend on the processing

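Igkv5-39 was called in each of 41 alternatives (log2 2.79 to 5.21; limma adjusted p at most 0.00282) and was not lower in any. A filter at 5 TPM left it untested. The number of V segments called higher was 2, and 2 to 6 with each library left out in turn (6 without old ZT22 replicate 1, 4 without old ZT6 replicate 1). It was 5 with no filter, 6 with the filter at 0.1 TPM, 0 with the filter at 5 TPM (1 segment tested), 1 with ZT14 or ZT18 left out, and 1 in replicate number 1 alone, an alternative added after seeing the data as were number 2 alone and both numbers with additive time. No V segment was called lower in any alternative. The age difference varied over times for 0 segments, but for 2 with no filter and 2 with the filter at 0.1 TPM. Those 2 settings called 17 of 21584 and 7 of 16419 genes.

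Over all genes, 139 were higher and 61 lower. The counts were 225 and 38 with unscaled TPM, which moved the median of all genes to 0.09 from -0.01. Without ZT6, 87 were higher and without ZT10, 67, while 38 were lower without ZT2. The filter at 5 TPM gave 66 higher. Replicate number 1 alone gave 31 and 7, and number 2 alone 55 and 24. With the replicate number as a block, 218 were higher and 134 lower, and 6 V segments were called (Igkv5-39, Iglv1, Igkv3-2, Igkv4-55, Igkv1-117 and Igkv19-93). The labels do not say that the numbers pair libraries. The difference between number 1 and number 2 over the tested genes correlated above 0.1 in 52 of 66 pairs of groups (lowest -0.16, median 0.19). Groups thus shared part of that difference, and what the number marks was not tested. The cause of these shifts was not tested.

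Segments per library averaged 33.8 in old and 10.6 in young; at 1 scaled TPM or more they averaged 17.7 and 2.25, and at 3 read equivalents or more 15.6 and 2.08. The summed levels and leading shares moved by less than 1 SD between libraries in every alternative run, which is a wide bound. For the old kappa sum the SD (74.0) exceeded the mean (64.4), and the lowest alternative gave a mean of 38.1. The old heavy mean fell from 15.8 (SD 14.1) to 10.5 in its lowest alternative. Depth limits the young values most: all V segments held 1.5 to 60.9 read equivalents per young library, and a listed 0 does not show absence.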
